A study of Mus musculus with 3 samples.

Results

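Donor CD4+ T cells from mice given cyclosporine A (CSA) at 50 mg/kg were compared with those from mice given saline. All CD4 cells of the deposited CD4 table that did not carry the TEa mark entered, which gave 10091 of 10371 cells in 9 pools, and 7122 of these cells, in 6 of the 9 pools, belonged to the groups compared here (4058 cells with saline, 3064 with CSA at 50 mg/kg). Every recipient was an irradiated B6D2F1 mouse transplanted with B6 bone marrow, B6 T cells and a small number of TEa TCR transgenic T cells, a combination in which the graft attacks the recipient, in the saline group as well. Saline or CSA was given daily from day 0 to day 6 and spleens were taken on day 7. Each group had 6 mice, pooled 2 by 2 into 3 hashtagged pools, and the pool is the replicate throughout. Sorted CD4+ and CD8+ T cells of the 3 pools of a group then went into a single 10x 5′ capture, so treatment and capture cannot be told apart in any result that follows. The group given CSA at 5 mg/kg supplied 3 further pools to the fit and is mentioned only as a level. From here "CSA" means 50 mg/kg unless the lower dose is named.

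Cyclosporine A binds cyclophilin A, the product of *Ppia*, and this complex blocks the phosphatase calcineurin. In a T cell, engagement of the T cell receptor (TCR) raises calcium, calcium activates calcineurin, and calcineurin removes phosphates from NFAT proteins so that they enter the nucleus. There NFAT acts with AP-1 on genes for cytokines such as interleukin 2, and, with less AP-1, on genes for inhibitory receptors. The ERK and NF-kB branches of TCR signalling do not run through calcineurin.

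The unit is the UMI, a count of captured RNA molecules, summed per pool. The saline pools held between 3994968 and 5612202 UMIs and the CSA pools between 6545845 and 7592334, with a median of 2966 to 3173.5 UMIs per cell in the saline pools and 5794.5 to 6300 in the CSA pools. Levels below are counts-per-million (CPM) after TMM scaling, given as mean ± SD over 3 pools, and changes are log2 values, CSA minus saline, from edgeR's quasi-likelihood test over all 9 pools. The adjusted p is Benjamini-Hochberg over all genes tested and a gene was called when it was under 0.05. Defining T cell genes were present: *Cd3e* was found at 816 ± 23.4 CPM with saline and 1151 ± 5.99 CPM with CSA and *Cd3d*, *Cd3g* and *Trbc2* stood at 839, 806 and 163 CPM with saline. *Cd4* itself fell from 625 ± 21.8 to 361 ± 8.36 CPM. *Cd8a* had 0 UMIs in all 6 pools of this table, which may reflect how cells were assigned to it and is no measure of CD8 cells, whereas *Cd8b1* was found at 123 ± 5.396 CPM with saline and 26.2 ± 2.81 CPM with CSA.

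Most genes moved. Of 10568 genes tested, 7454 (70.5%) were called, 3669 higher (34.7%) and 3785 lower (35.8%) with CSA, and the 3 pools of each group did not overlap for 7682 (72.7%). The median log2 change of all genes was -0.01, 582 genes rose and 1222 fell by at least 1 on the log2 scale, and 66 rose and 243 fell by at least 2. The counts in each gene list below should be read against these shares and against the shares by transcript length in the next paragraph. The balance depended on scaling: with plain library size scaling the median of all genes was -0.45 and the calls were 1599 higher and 6239 lower, so each log2 value below shifts down by about that amount under that scaling.

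Transcript length ran through the whole comparison. The 596 tested genes whose median transcript was under 750 nt had a median log2 change of 0.77, and 70% of them were called higher and 9.23% lower. The 1757 genes between 750 and 1500 nt had a median of 0.55, with 69.8% higher and 9.05% lower. The 3967 genes between 1500 and 3000 nt had a median of 0.12, with 39% higher and 22.4% lower. For the 3342 genes between 3000 and 6000 nt the median was -0.42, with 12.3% higher and 58.5% lower. The 824 genes of 6000 nt or more had a median of -0.83, with 4.37% higher and 84.2% lower. Short transcripts thus stood higher and long transcripts lower, class by class, with a Spearman correlation of -0.59 across 10486 genes, which are not independent replicates. As a share of all UMIs, genes under 1500 nt took 41.5%, 41.5% and 41.4% in the saline pools and 53.9%, 54.2% and 54.6% in the CSA pools. The 5 mg/kg pools, a separate capture, gave 52.9%, 53.3% and 53.5%. The relation was present in each of the 10 clusters that could be compared, with a correlation between -0.32 in clusters C1 and C2 and -0.66 in cluster C5. UMIs per cell and capture moved together with treatment, and their part in this relation was not tested. A fit with a smooth offset for transcript length in every pool (length offsets) called 6158 genes, 3684 higher and 2474 lower. Its median log2 change of all genes was 0.074. It reduced the relation with length but did not remove it (Spearman correlation -0.084). Genes under 1500 nt kept a median of 0.18, and genes of at least 3000 nt stood at -0.0062. The fit shared 5183 of the 7454 calls, 4894 of them in the same direction. Both the value with length offsets and that under library size scaling stand beside each list median below.

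**Figure D1:**
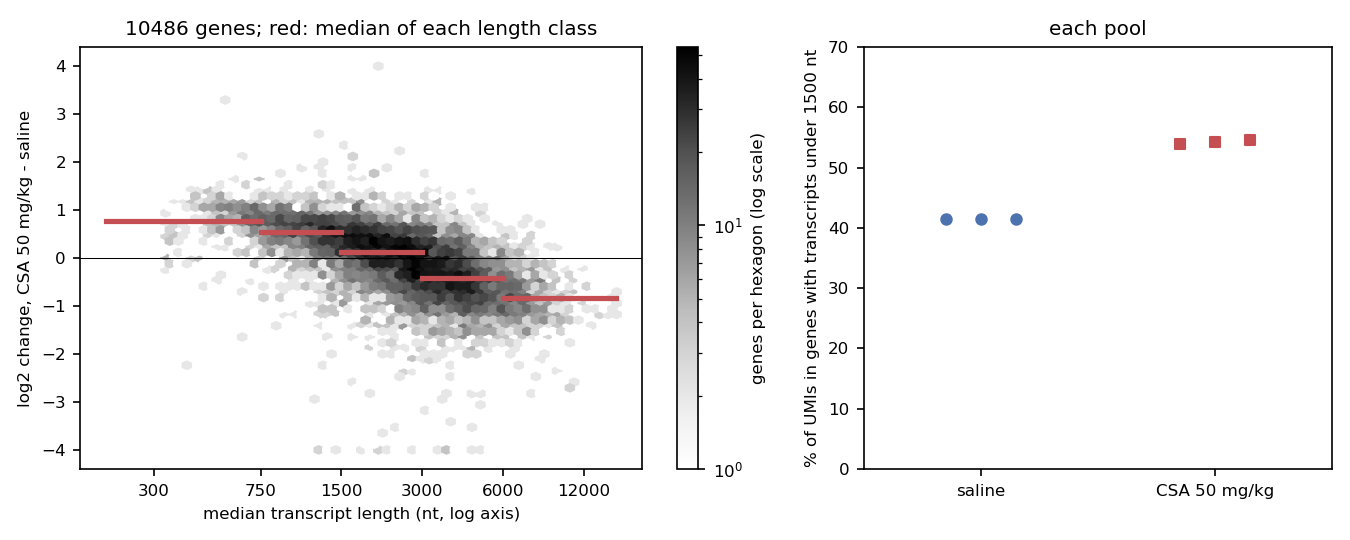
Left, log2 change (CSA 50 mg/kg minus saline) of each gene against its median transcript length in nucleotides on a log axis, with the median of each length class in red. Right, percent of all UMIs in genes under 1500 nt for each pool of 2 mice. Class medians run from 0.77 for genes under 750 nt to -0.83 for genes of at least 6000 nt, and the saline pools (41.4% to 41.5%) lie below the CSA pools (53.9% to 54.6%).

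The 15 largest rises and 15 largest falls were taken among called genes of at least 50 CPM whose pools did not overlap. Their lack of overlap is thus part of the choice and not a separate result. The largest rise belonged to *Lmna*, which encodes the nuclear lamina proteins lamin A and C. It read 1.89, 2.52 and 2.59 CPM in the saline pools and 171, 205 and 168 CPM in the CSA pools. Every CSA pool lay above every saline pool, a fold of 75.5 (log2 change 6.24 ± 0.132 SE, adjusted p = 4.25e-19), while the 5 mg/kg pools stayed at 4.54 CPM. *Ly6c2*, a surface protein of memory and effector T cells, read 159.8, 145 and 176 CPM with saline and 2336, 2032 and 1713 CPM with CSA (log2 change 3.66). *Klrg1*, an inhibitory lectin-like receptor of terminal effector cells, read 11.9, 15.6 and 14.04 CPM with saline and 167, 164 and 133 CPM with CSA (log2 change 3.46). Neither gene's pools overlapped between the groups. *Dapl1*, known from naive and memory precursor T cells, rose from 11.3 ± 1.31 to 114 ± 20.99 CPM, and *Ctla2a*, a cysteine protease inhibitor, from 25.9 ± 5.91 to 201 ± 14.2 CPM. *Chchd10*, a mitochondrial cristae protein, rose from 18.9 ± 2.29 to 114 ± 6.45 CPM. Calcium-binding and cytoskeletal genes made up much of the remainder: *Anxa1* rose from 60.1 ± 10.1 to 356 ± 11.8 CPM, *S100a4* from 144 ± 19.5 to 790.2 ± 19.9 CPM, *S100a6* from 1602 ± 71.7 to 6489.98 ± 205 CPM, *Crip1* from 1175 ± 51.3 to 4672 ± 153 CPM and the actin-capping *Capg* from 151 ± 2.85 to 549 ± 39.4 CPM. The activating receptor gene *Klrk1* (NKG2D) rose from 22.1 ± 0.557 to 84.6 ± 8.59 CPM and the chemokine gene *Ccl5* from 827 ± 29.9 to 3112 ± 265 CPM. *Dnajc15*, a mitochondrial co-chaperone, and *Arpp19*, a regulator of the phosphatase PP2A, rose by 1.78 and 1.77 on the log2 scale. All 15 stayed above 0 under library size scaling, with length offsets and when any 1 pool was left out. The choice of large changes without overlap largely fixed this in advance.

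Among the falls, *Sostdc1*, a secreted antagonist of BMP and Wnt signals made by follicular helper T cells, had 2045 UMIs in the saline pools and 0 in the CSA pools, at least 698-fold lower on the TMM scale with a limit of 3 UMIs over the group. It stood at 115 CPM at 5 mg/kg. The chemokine gene *Ccl1* read 184, 157 and 123 CPM in the saline pools and 2.76, 11.01 and 0.149 CPM in the CSA pools. The CSA pools were far apart from each other yet all below the saline pools (log2 change -5.09 ± 0.3201 SE, adjusted p = 8.41e-12). *Pdcd1*, which encodes the inhibitory receptor PD-1, read 259, 218 and 194 CPM with saline and 15.3, 15.9 and 30.9 CPM with CSA, and the transcription factor gene *Tox* read 154, 154 and 131 CPM with saline and 12.2, 14.5 and 14.9 CPM with CSA. Groups did not overlap for either, at log2 changes of -3.40 and -3.39, and at 5 mg/kg the means were 234 and 95.98 CPM. *Izumo1r* (folate receptor 4), expressed by regulatory and anergic CD4 T cells, fell from 93.5 ± 14.6 to 12.6 ± 2.62 CPM, *Ikzf2* (Helios) from 98.00 ± 4.58 to 13.6 ± 1.32 CPM, and *Tnfsf8* (CD30 ligand) from 143 ± 25.9 to 20.1 ± 6.37 CPM. The interferon-induced membrane genes *Ifitm1* and *Ifitm3* fell from 302 ± 46.6 to 42.9 ± 18.6 CPM and from 149.8 ± 8.02 to 23.2 ± 3.23 CPM; at 5 mg/kg their means were 738 and 362 CPM, above saline. *Rnf19a*, a ubiquitin ligase, fell from 106 ± 6.43 to 19.5 ± 1.897 CPM. The 5 remaining places were histone genes, *Hist1h2bm*, *Hist1h3f*, *Hist1h3e*, *Hist1h3c* and *Hist1h1a*, at log2 changes between -3.22 and -2.37. All 15 stayed below 0 under the same alternatives, which the choice again largely fixed in advance.

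**Figure D2:**
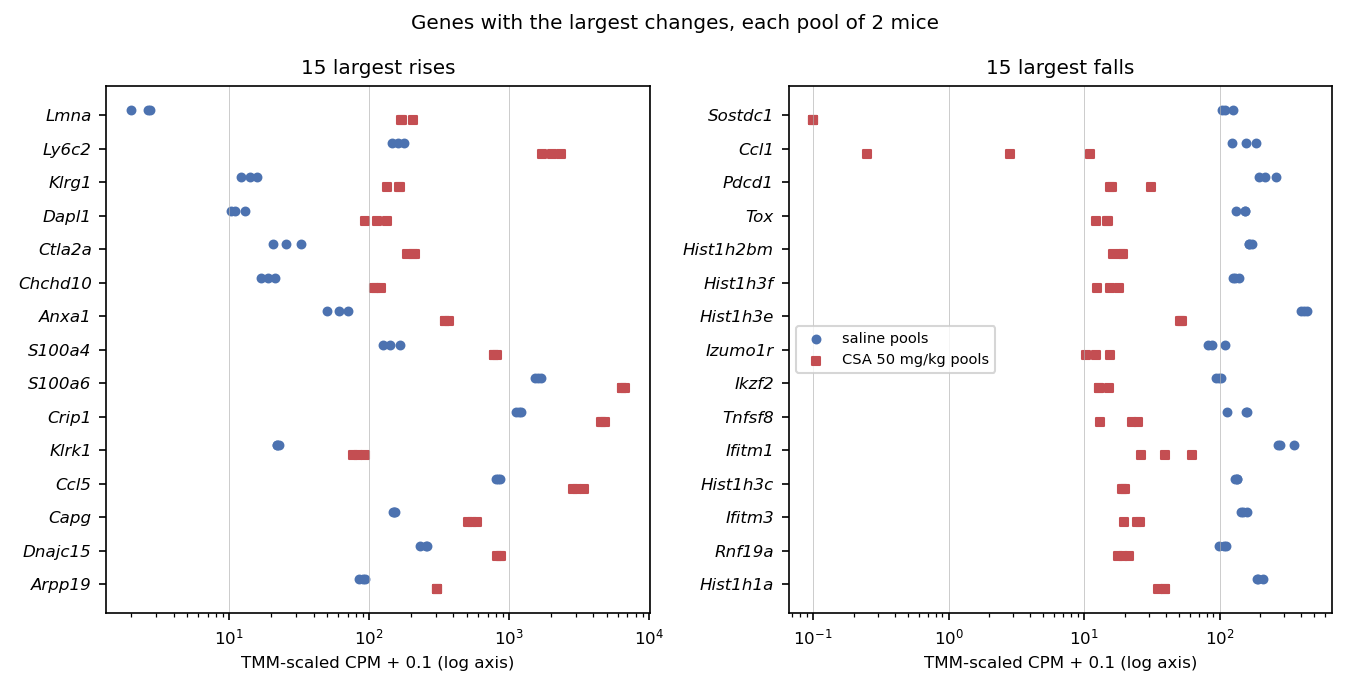
TMM-scaled CPM of the 15 largest rises (left) and 15 largest falls (right) in each pool, on a log axis with a small offset so that 0 can be drawn; circles are saline pools and squares CSA 50 mg/kg pools. For each gene the squares lie wholly on one side of the circles, as the choice of genes required, and *Sostdc1* lies at 0 in every CSA pool.

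Since NFAT binds the core GGAAA, the promoters of the largest changes are shown with each copy in capitals (GGAAA, or TTTCC where it lies on the other strand). Promoters were the 250 bases upstream of RefSeq starts in GRCm38.p6, and the 3 largest falls and 2 largest rises with a single listed promoter were taken, printed 5′ to 3′ on the strand of the gene.
*Ccl1*, chr11:82179813-82180062, minus strand: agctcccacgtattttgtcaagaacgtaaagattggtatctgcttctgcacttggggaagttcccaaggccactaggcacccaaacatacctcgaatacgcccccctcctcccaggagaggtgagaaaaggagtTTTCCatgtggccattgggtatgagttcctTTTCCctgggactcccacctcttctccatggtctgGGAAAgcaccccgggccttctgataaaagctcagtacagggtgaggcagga
*Pdcd1*, chr1:94052554-94052803, minus strand: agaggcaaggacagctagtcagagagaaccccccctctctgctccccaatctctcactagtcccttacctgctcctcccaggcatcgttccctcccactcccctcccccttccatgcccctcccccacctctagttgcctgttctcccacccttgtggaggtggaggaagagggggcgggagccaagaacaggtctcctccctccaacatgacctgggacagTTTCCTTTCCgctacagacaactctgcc
*Izumo1r*, chr9:14903768-14904017, minus strand: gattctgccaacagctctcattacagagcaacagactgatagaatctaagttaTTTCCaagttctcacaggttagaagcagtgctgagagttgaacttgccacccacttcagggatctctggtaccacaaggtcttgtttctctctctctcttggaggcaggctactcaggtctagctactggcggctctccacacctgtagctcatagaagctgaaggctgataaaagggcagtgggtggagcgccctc
*Dapl1*, chr2:59484403-59484652, plus strand: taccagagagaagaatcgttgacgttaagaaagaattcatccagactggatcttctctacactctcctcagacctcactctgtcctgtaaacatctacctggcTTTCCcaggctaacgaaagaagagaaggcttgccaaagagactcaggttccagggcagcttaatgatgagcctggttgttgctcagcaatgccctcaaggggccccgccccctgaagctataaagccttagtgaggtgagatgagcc
*Chchd10*, chr10:75932880-75933129, plus strand: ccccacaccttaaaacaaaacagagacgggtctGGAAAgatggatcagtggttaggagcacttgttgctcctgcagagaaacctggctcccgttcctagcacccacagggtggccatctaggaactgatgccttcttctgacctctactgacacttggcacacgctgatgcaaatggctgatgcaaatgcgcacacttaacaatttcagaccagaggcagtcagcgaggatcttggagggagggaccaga
*Ccl1* held 3 copies, *Pdcd1* held 2 that touch each other, and the other three held 1 each. The core is short and common. It was found in 18254 of 32851 mouse promoters of this length (55.6%), in 54.3% of the promoters of genes called higher and in 54.2% of those called lower, and in 7 of 17 promoters of the 15 rises and 4 of 6 promoters of the 15 falls, for which 13 and 6 genes had a listed promoter. The AP-1 motif TGANTCA, read on both strands, stood in 6.75% of all promoters and in 4.06% of those of tested genes. The shares were 4.16% for genes called higher and 3.99% for genes called lower. It stood in 2 of 17 promoters of the 15 rises and in 1 of 6 promoters of the 15 falls. None of the 5 promoters printed held it.

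Genes of the calcineurin pathway itself moved in both directions. Of 14 tested members, 4 rose and 9 fell, with a median log2 change of -0.53 (-0.97 under library size scaling and -0.24 with length offsets). The list's median transcript was 3331 nt. Its 64.3% lower stands beside 58.5% for all genes between 3000 and 6000 nt. With length offsets 4 rose and 8 fell. *Ppia*, the cyclosporine-binding cyclophilin, read 2838, 2816 and 2792 CPM with saline and 5145, 5129 and 5109 CPM with CSA, and *Fkbp1a*, which binds the related drug tacrolimus, rose from 361 ± 15.7 to 628 ± 13.1 CPM. The catalytic subunit gene *Ppp3ca* rose from 62.6 ± 5.05 to 92.9 ± 5.21 CPM. The NFAT genes went the other way. *Nfatc1*, whose short isoform is itself induced by NFAT, read 306, 310.3 and 285 CPM with saline and 147, 137 and 149 CPM with CSA, all CSA pools lying below all saline pools (log2 change -1.06). *Nfatc2* fell from 102 ± 2.97 to 44.2 ± 1.89 CPM and *Nfat5*, which does not need calcineurin, from 61.7 ± 3.99 to 21.8 ± 2.91 CPM. *Rcan1*, a calcineurin inhibitor and a known NFAT target, was scarce and fell from 6.06 ± 2.77 to 3.25 ± 0.224 CPM (log2 change -0.84 ± 0.301 SE, adjusted p = 0.0172). Its call was lost without saline pool 1 or saline pool 3 (log2 changes -0.52 and -0.81).

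Among transcription factors induced by the TCR, 4 rose, 11 fell and 5 did not pass, with a median log2 change of -0.57 (-1.01 under library size scaling and -0.17 with length offsets). Their 55% lower stood near the 58.5% of all genes between 3000 and 6000 nt, as their median transcript was 3026.5 nt. With length offsets 7 rose and 8 fell. Within clusters the median was above 0 in 3 and below 0 in 7 of 10. It was highest in C0 (0.39, 9 higher and 6 lower of 18) and C3 (0.31, 5 higher and 2 lower of 15). *Egr1*, an immediate early gene of the ERK branch, stood at 71.8 ± 5.42 CPM with saline and 69.4 ± 3.38 CPM with CSA. It did not pass the test (log2 change -0.042 ± 0.0736 SE, adjusted p = 0.625). With length offsets *Egr1* passed upward (0.32, adjusted p = 0.000936), and among the clusters it read above 0 only within C0 and C3 (0.92 and 1.60). *Egr2*, which is NFAT-driven, fell from 25.1 ± 0.643 to 10.5 ± 3.98 CPM. *Nr4a1* (Nur77), often used as a reporter of TCR signalling, rose, with 33.3, 34.9 and 34.04 CPM with saline and 95.9, 93.5 and 106 CPM with CSA. Its groups did not overlap (log2 change 1.53, and 1.60 with length offsets). *Irf4*, which follows TCR strength, fell from 33.4 ± 5.53 to 21.8 ± 3.38 CPM. The AP-1 genes split, *Fosb* falling from 46.3 ± 4.31 to 13.4 ± 2.58 CPM and *Jund* rising from 486 ± 6.23 to 866 ± 25.9 CPM. *Rel*, the NF-kB subunit c-Rel, fell from 75.3 ± 2.12 to 33.05 ± 3.16 CPM.

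The receptor and its proximal signalling genes were divided, 10 higher and 11 lower of 25 tested, with a median log2 change of 0.0076 (-0.43 under library size scaling and 0.22 with length offsets). The kinase gene *Lck* and the adaptor gene *Lat* rose from 553 ± 3.81 to 872 ± 15.9 CPM and from 468 ± 14.4 to 969 ± 47.00 CPM, and the CD6 receptor gene *Cd6* from 145 ± 9.93 to 301 ± 9.86 CPM. *Zap70* stood at 301 ± 10.9 CPM with saline and 305 ± 2.66 CPM with CSA and did not pass. *Malt1*, the paracaspase that links the TCR to NF-kB, fell from 138 ± 7.73 to 38.2 ± 3.72 CPM. *Themis*, a TCR signal modulator, fell from 209 ± 5.05 to 89.4 ± 3.78 CPM, and the kinase gene *Fyn* from 298 ± 13.95 to 161 ± 3.25 CPM. Feedback inhibitors also divided, 5 higher and 11 lower of 19, with a median of -0.23 (-0.67 under library size scaling and -0.13 with length offsets). The MAPK phosphatase genes *Dusp2* and *Dusp5* rose, from 167 ± 13.3 to 373 ± 29.2 CPM and from 97.8 ± 6.82 to 191 ± 21.3 CPM, and *Dusp6* rose by 0.38 (-0.058 under library size scaling). *Spry1* fell from 5.51 ± 0.428 to 1.06 ± 0.514 CPM. The NF-kB inhibitors *Tnfaip3* (A20) and *Nfkbia* fell from 60.5 ± 4.003 to 22.8 ± 0.782 CPM and from 402 ± 12.03 to 224 ± 14.8 CPM. *Dgka*, a kinase that limits diacylglycerol, stood at 306 ± 8.98 CPM with saline and 326 ± 5.298 CPM with CSA (adjusted p = 0.0786).

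NF-kB factors and inhibitors fell in 12 of 16 members and rose in 3 (median log2 change -0.35, -0.79 under library size scaling and -0.28 with length offsets). *Nfkbiz* fell from 129 ± 9.54 to 35.1 ± 2.14 CPM and the p50 precursor gene *Nfkb1* from 179.9 ± 5.45 to 145 ± 5.41 CPM, the latter at 0.010 with length offsets.

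Cytokine genes were lower in 10 and higher in 3 of 18 tested, with a median log2 change of -0.70 (-1.14 under library size scaling and -1.07 with length offsets). *Il21*, the cytokine by which follicular helper cells act on B cells, read 45.03, 55.2 and 49.6 CPM in the saline pools and 1.89, 1.34 and 4.18 CPM in the CSA pools. The groups were far apart (log2 change -4.30 ± 0.178 SE, adjusted p = 8.08e-15). *Ifng* fell from 83.2 ± 35.1 to 48.4 ± 3.07 CPM, *Tnf* from 53.4 ± 3.29 to 33.6 ± 5.51 CPM, and *Tnfsf14* (LIGHT) from 42.2 ± 2.47 to 11.1 ± 3.85 CPM. *Il2* was barely captured on day 7, at 5.41 ± 0.791 CPM with saline and 3.31 ± 3.08 CPM with CSA, and did not pass (log2 change -0.63 ± 0.4604 SE, adjusted p = 0.228), although it did without CSA pool 3 (-1.79, adjusted p = 0.00246). Of 7 chemokine genes, 1 rose and 3 fell. The rise was *Ccl5*, which read 858, 798 and 825 CPM with saline and 3397, 3067 and 2873 CPM with CSA, whereas *Xcl1*, a ligand for cross-presenting dendritic cells, fell from 31.9 ± 1.99 to 1.702 ± 0.633 CPM. *Ccl3* and *Ccl4* varied widely between pools. *Ccl4* read 333, 199.8 and 249.6 CPM with saline and 149, 219 and 547 CPM with CSA and did not pass (log2 change 0.25, adjusted p = 0.436). It passed upward without CSA pool 1 (0.58) and downward without CSA pool 3 (-0.48). *Ccl3*, at 131 ± 65.8 CPM with saline and 112 ± 66.05 CPM with CSA, did not pass either, except without CSA pool 3 (-0.76).

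Inhibitory receptor and TOX genes fell in 14 of 18 members and rose in 1, with a median log2 change of -1.61 (-2.05 under library size scaling and -1.67 with length offsets), against a median of -0.01 and 35.8% lower over all genes. Together their UMIs made up 0.166% ± 0.00806 of UMIs with saline and 0.0401% ± 0.00281 with CSA (SD, n = 3). Beside *Pdcd1* and *Tox*, *Tox2* read 36.7, 46.6 and 42.3 CPM with saline and 0.344, 0.501 and 1.34 CPM with CSA. *Tigit*, an inhibitory receptor for nectin-family ligands, read 257, 245 and 246 CPM with saline and 72.2, 56.6 and 66.9 CPM with CSA. *Lag3*, a ligand-binding relative of CD4, fell from 108 ± 10.4 to 35.7 ± 11.3 CPM, and *Ctla4* from 89.3 ± 3.92 to 68.6 ± 9.29 CPM, the smallest of the falls named here. The immunoglobulin-like receptor genes *Lilrb4a* and *Lilr4b*, near-identical neighbours between which reads can be split, fell from 21.3 ± 1.93 to 0.642 ± 0.261 CPM and from 85.9 ± 5.71 to 6.63 ± 0.724 CPM. *Lag3*, *Ctla4* and *Tigit* stood at 149, 107 and 346 CPM at 5 mg/kg, each above its saline mean. In none of the 9 clusters with enough members was the list's median above 0. Of the receptors named, *Ctla4* read above 0 in clusters C0, C1, C2 and C7 and *Lag3* in C2.

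Costimulatory and activation receptors fell in 11 and rose in 4 of 18 (median log2 change -0.60, -1.04 under library size scaling and -0.79 with length offsets). *Icos* read 490.3, 463 and 469 CPM with saline and 175, 153 and 201 CPM with CSA, with no overlap. *Cd226*, the activating counterpart of TIGIT, fell from 127 ± 7.49 to 44.1 ± 2.73 CPM, *Slamf1* from 84.6 ± 5.06 to 19.3 ± 4.19 CPM, *Cd38* from 22.7 ± 1.998 to 5.301 ± 1.999 CPM and *Tnfrsf4* (OX40) from 209 ± 1.302 to 144 ± 3.75 CPM. *Cd48* rose from 364 ± 11.7 to 581 ± 14.7 CPM. The early activation gene *Cd69* stood at 139 ± 5.85 CPM with saline and 127 ± 13.7 CPM with CSA (adjusted p = 0.0958, passing without CSA pool 1 at -0.18).

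The genes of helper subsets moved further than most. No follicular helper gene rose and 10 of 14 fell, with a median log2 change of -1.62 (-2.06 under library size scaling and -1.90 with length offsets). *Cxcr5*, which guides these cells into B cell follicles, read 45.5, 55.5 and 41.4 CPM in the saline pools and 1.89, 1.502 and 2.84 CPM in the CSA pools. The lineage factor gene *Bcl6* read 18.4, 24.03 and 20.6 CPM with saline and 4.13, 4.01 and 3.28 CPM with CSA. Neither overlapped between groups (log2 changes -4.48 and -2.48), and at 5 mg/kg they stood at 34.2 and 14.1 CPM. *Angptl2* fell from 26.05 ± 8.65 to 0.329 ± 0.345 CPM. *Maf*, which is shared with other helper subsets, stood at 137 ± 3.99 CPM with saline and 127 ± 0.425 CPM with CSA and did not pass (adjusted p = 0.08603). In the sums, fewer cells of a subset and less RNA per cell cannot be told apart. Both parts were measured by cluster, although the clusters were drawn on the same genes. Cluster C4, which held 48.6% of the *Cxcr5* and 43.1% of the *Bcl6* UMIs with saline, went from 18.1% ± 0.71 of cells with saline to 1.47% ± 0.367 with CSA (SD, n = 3). Within clusters the list's median log2 change was below 0 in 10 of 10, at -3.16 in C4 and between -1.698 and -0.43 in the others. *Cxcr5* was lower in 3 of 3 clusters in which it could be tested, and *Bcl6* in 3 of 3.

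Th2 and Th17 genes fell in 8 of 11 and rose in 1, with a median of -2.62 (-3.06 under library size scaling and -2.96 with length offsets). The exception was *Gata3*, the Th2 factor that all CD4 cells carry at a low level, which rose from 78.3 ± 7.75 to 112 ± 4.12 CPM. *Il1rl1*, the IL-33 receptor, fell from 20.1 ± 4.09 to 0.274 ± 0.197 CPM. Regulatory T cell genes divided, 4 higher and 5 lower of 10, with a median log2 change of 0.028 (-0.41 under library size scaling and -0.36 with length offsets). *Foxp3* was scarce and rose from 6.61 ± 1.902 to 10.2 ± 1.95 CPM (log2 change 0.59 ± 0.204 SE, adjusted p = 0.0139), yet read -0.85 when the shares of 10 clusters were held equal between the groups. That value leaves out cluster C11, which held 56 of the *Foxp3* UMIs with saline (45.5%) and 166 with CSA (87.8%), and whose share stood at 0.469% ± 0.261 of cells with saline and 1.92% ± 0.261 with CSA (SD, n = 3). The list's median was -0.51 on the same basis. Its call was lost without saline pool 1 (0.42) or CSA pool 2 (0.50), and without CSA pool 3 the median of the list was -0.40. *Ikzf2* and *Izumo1r* were among the largest falls, and *Tnfrsf1b*, the TNF receptor 2 gene, fell from 75.1 ± 5.22 to 28.03 ± 2.59 CPM.

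Genes of naive and central memory cells rose more often than they fell, 15 higher and 4 lower of 23, at a median log2 change of 0.34 (-0.10 under library size scaling and 0.32 with length offsets), which lies below 0 under library size scaling. *Klf2*, the quiescence factor that drives *S1pr1*, read 576, 506 and 522 CPM with saline and 1014, 1053 and 1010.4 CPM with CSA. The CSA pools all lay above the saline pools. It was higher in 10 of 10 clusters. *Ly6c1* rose from 8.58 ± 1.22 to 33.8 ± 10.9 CPM. In contrast, *Tcf7*, the factor TCF-1 of memory and stem-like cells, read 209.7, 235 and 184 CPM with saline and 54.8, 51.9 and 71.1 CPM with CSA, and was lower in 10 of 10 clusters. *Il7r*, the IL-7 receptor, fell from 296 ± 24.8 to 143 ± 26.9 CPM and *Bcl2* from 120.4 ± 2.38 to 61.03 ± 7.82 CPM. *S1pr1* fell by 0.20 on the log2 scale (adjusted p = 0.00447), and stood at 0.0060 with length offsets.

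Effector genes were mixed, with 10 higher and 8 lower of 22 and a median log2 change of 0.031 (-0.41 under library size scaling and 0.050 with length offsets). *Tbx21* (T-bet), the Th1 factor, stood at 121 ± 1.09 CPM with saline and 123 ± 14.8 CPM with CSA and did not pass (log2 change 0.023 ± 0.0637 SE, adjusted p = 0.762). *Eomes*, its relative in cytotoxic and memory cells, rose from 9.79 ± 2.36 to 33.3 ± 1.76 CPM. *Id2* rose from 415 ± 42.9 to 952 ± 53.1 CPM, whereas *Zeb2*, which acts in terminal effectors, fell from 14.3 ± 1.604 to 2.45 ± 0.708 CPM. *Cx3cr1*, a fractalkine receptor of terminal effectors, had 200 UMIs with saline and 3 with CSA, a 68.3-fold ratio on the TMM scale (95% exact interval 23 to 334, for counting error only). *Il18r1* fell from 222 ± 9.91 to 48.5 ± 0.943 CPM. The VLA-4 integrin genes *Itga4* and *Itgb1* fell from 868 ± 32.1 to 295 ± 27.8 CPM and from 923 ± 33.8 to 346 ± 24.4 CPM, so that *Klrg1* and *Ly6c2* rose beside falls in other genes of the same list.

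Granzyme and granule genes were equally mixed, 8 higher and 6 lower of 17, with a median log2 change of 0.076 (-0.36 under library size scaling and -0.066 with length offsets). *Gzma* read 267, 285 and 384 CPM with saline and 83.00, 41.6 and 103 CPM with CSA and *Gzmb* read 590.3, 528 and 574 CPM with saline and 1407, 1142 and 1110.5 CPM with CSA. The first was lower in 10 of 10 clusters, while the second rose in the sum (log2 change 1.11) but was higher in 4 and lower in 4 of 10 clusters. *Gzmk* fell from 61.4 ± 11.5 to 35.8 ± 7.02 CPM and the pore-forming perforin gene *Prf1* from 31.1 ± 5.31 to 16.4 ± 1.22 CPM, and *Gzmm* rose from 6.34 ± 2.19 to 26.8 ± 6.496 CPM. *Klrc1* (NKG2A) rose from 71.8 ± 3.52 to 217 ± 17.1 CPM. The NK marker *Klrb1c* moved the opposite way, with 24, 36 and 35 UMIs in the saline pools and 3, 3 and 4 in the CSA pools. *Ncr1* had 0 UMIs in 5 of 6 pools. The NK list's other markers did not pass. *Tyrobp* had 73, 128 and 127 UMIs in the saline pools and 57, 200 and 160 in the CSA pools. *Fcer1g* had 173, 252 and 270 UMIs in the saline pools and 142, 397 and 264 in the CSA pools.

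Homing receptors divided, 11 higher and 10 lower of 24, with a median of 0.025 (-0.41 under library size scaling and 0.14 with length offsets). *Ccr2* rose from 120.4 ± 10.7 to 259.6 ± 9.93 CPM, and the Th1 receptor gene *Cxcr3* from 282 ± 9.87 to 391 ± 13.6 CPM. *Selplg*, the P-selectin ligand, rose from 699 ± 39.7 to 1183 ± 25.2 CPM, and *S1pr4* from 206 ± 22.9 to 378 ± 9.04 CPM. *Cxcr4* fell from 16.2 ± 1.505 to 6.09 ± 1.39 CPM. Cytokine receptors, JAK kinases, STAT factors and their inhibitors fell in 26 of 36 and rose in 2, with a median log2 change of -0.53 (-0.97 under library size scaling and -0.33 with length offsets). *Il6st* (gp130), the shared signalling chain of the IL-6 family, read 34.98, 36.9 and 31.4 CPM with saline and 3.62, 5.34 and 5.97 CPM with CSA. *Jak2* fell from 128 ± 3.73 to 38.1 ± 1.78 CPM and *Stat5a*, which carries IL-2 signals, from 38.95 ± 3.01 to 20.6 ± 2.31 CPM. *Il2rb* stood at 474 ± 13.1 CPM with saline and 478 ± 14.9 CPM with CSA and *Cish*, an IL-2-induced inhibitor, at 44.5 ± 8.77 CPM with saline and 47.2 ± 3.95 CPM with CSA, and neither passed, except *Cish* without saline pool 3 (0.24).

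**Figure D3:**
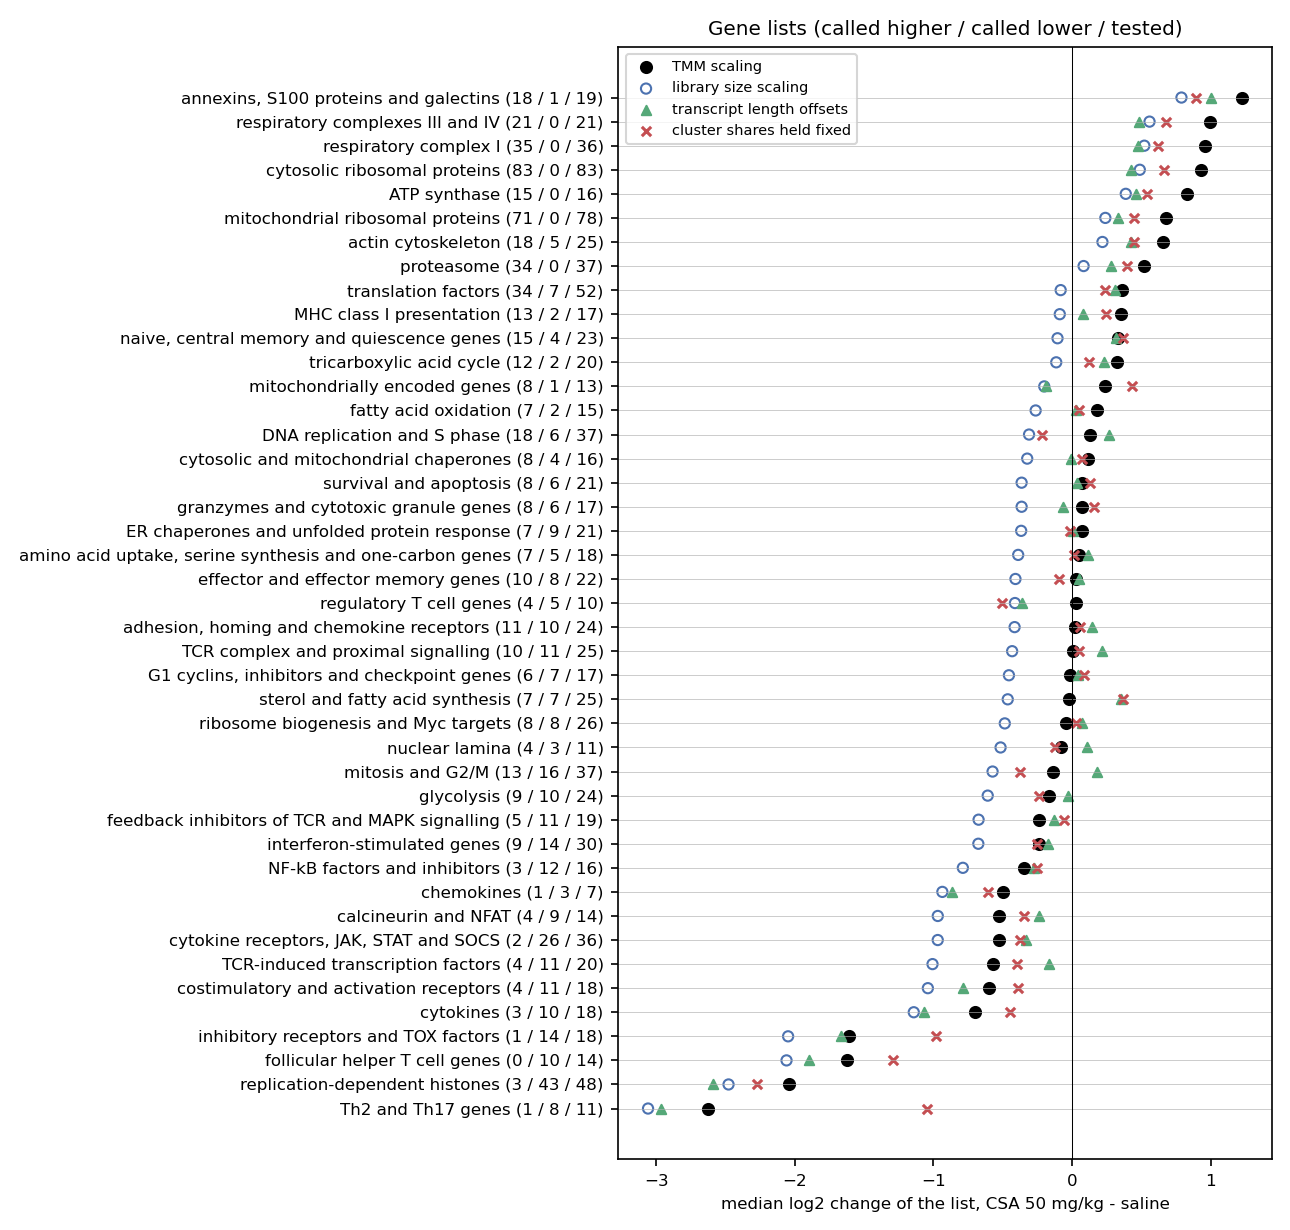
Median log2 change (CSA 50 mg/kg minus saline) of each gene list, with the median under library size scaling and with transcript length offsets beside it; the numbers after each name are members called higher, called lower and tested. Th2 and Th17, histone, follicular helper and inhibitory receptor genes lie lowest under all 3 settings, and the annexin, S100 and galectin list lies highest.

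Metabolic genes separated by pathway. In the sums, subunits of the respiratory chain rose almost throughout: 35 of 36 in complex I (median log2 change 0.96, 0.52 under library size scaling and 0.48 with length offsets), 21 of 21 in complexes III and IV (0.999, 0.56 under library size scaling and 0.48 with length offsets) and 15 of 16 in ATP synthase (0.83, 0.39 under library size scaling and 0.46 with length offsets), and none fell. *Ndufa1* read 111, 114 and 103 CPM with saline and 272, 279 and 269 CPM with CSA and *Atp5l* read 348, 338 and 338 CPM with saline and 840.02, 833 and 864 CPM with CSA. *Ndufs1*, the large iron-sulfur subunit of complex I, stood at 54.4 ± 0.678 CPM with saline and 51.7 ± 1.85 CPM with CSA and did not pass (adjusted p = 0.338), *Uqcrc1* rose by 0.58 and *Atp5a1* by 0.38 (-0.062 under library size scaling). Rises of at least 1 on the log2 scale were also found for *Ndufa3* (1.29), *Cox6c* (1.12), *Cox7c* (1.13) and *Uqcrq* (1.29). *Atp5e* rose from 446 ± 4.97 to 1033 ± 12.6 CPM and stood at 1209 CPM at 5 mg/kg, so the level at the lower dose was not between saline and 50 mg/kg. Within clusters the rise varied in size. The cluster median ran from 0.10 in C2 to 1.07 in C0 for complex I, where 7 and 34 of 36 were called higher. For complexes III and IV it ran from 0.12 in C1 to 1.13 in C0, with 5 and 20 of 21 higher. For ATP synthase it ran from 0.077 in C1 to 0.91 in C0. The median transcript of complex I members was 772 nt. Mitochondrially encoded subunits, transcribed in the organelle, rose in 8 of 13 and fell in 1, with a median of 0.24 (-0.20 under library size scaling and -0.19 with length offsets), below 0 under both alternatives. Their share was 1.81% ± 0.0559 of UMIs with saline and 1.71% ± 0.0744 with CSA (SD, n = 3). *mt-Co1* and *mt-Co3* rose from 3374 ± 109 to 4552 ± 303 CPM and from 2373 ± 57.9 to 3770.01 ± 168 CPM, *mt-Nd1* rose by 0.24, and *mt-Nd6* fell from 39.4 ± 3.22 to 27.2 ± 2.48 CPM.

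The citric acid cycle rose in 12 and fell in 2 of 20 genes (median log2 change 0.33, -0.11 under library size scaling and 0.23 with length offsets). *Sdhb*, shared with respiratory complex II, rose from 185 ± 7.02 to 355 ± 16.7 CPM and *Mdh2* from 279 ± 8.21 to 402 ± 10.00 CPM, while citrate synthase, *Cs*, stood at 144 ± 5.31 CPM with saline and 155 ± 1.71 CPM with CSA (adjusted p = 0.0586). Glycolysis split, with 9 higher and 10 lower of 24 and a median of -0.17 (-0.61 under library size scaling and -0.027 with length offsets). The enzymes *Gapdh*, *Eno1* and *Ldha* rose from 309 ± 5.91 to 744 ± 14.3 CPM, from 179.9 ± 8.71 to 354 ± 7.698 CPM and from 897 ± 9.87 to 1404 ± 22.9 CPM, and the glucose transporter gene *Slc2a1* from 28.5 ± 2.003 to 47.1 ± 2.28 CPM. *Hif1a*, the factor that drives glycolytic genes, read 339, 331 and 325 CPM with saline and 117, 119.99 and 124 CPM with CSA, all CSA pools below all saline pools, and *Hk1* fell from 110.2 ± 1.94 to 68.4 ± 2.78 CPM.

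Lipid genes showed no common direction. Sterol and fatty acid synthesis had 7 genes higher and 7 lower of 25 (median log2 change -0.024, -0.46 under library size scaling and 0.35 with length offsets), and *Hmgcs1* and *Sqle* stood at log2 changes of -0.024 and 0.30 without passing, except *Sqle* without CSA pool 3 (0.46). *Msmo1* and *Srebf2* of the sterol branch rose from 17.00 ± 0.479 to 27.6 ± 3.13 CPM and from 54.3 ± 1.14 to 77.8 ± 8.14 CPM, and *Acaca* and *Fasn* of the fatty acid branch fell from 19.02 ± 2.61 to 7.15 ± 1.03 CPM and from 40.6 ± 3.28 to 17.8 ± 0.852 CPM. Fatty acid oxidation had 7 higher and 2 lower of 15 (median 0.18, -0.26 under library size scaling and 0.030 with length offsets). *Cpt1a*, the gate of mitochondrial fatty acid entry, fell from 70.9 ± 2.62 to 25.1 ± 4.31 CPM, *Acadm* rose from 19.4 ± 1.05 to 32.8 ± 3.72 CPM, and *Acadl* stood at 122 ± 5.86 CPM with saline and 126 ± 7.87 CPM with CSA without passing. Amino acid and one-carbon genes also divided (7 higher, 5 lower of 18, median 0.051, -0.39 under library size scaling and 0.11 with length offsets). The serine pathway genes *Phgdh*, *Psph* and *Mthfd2* rose, by 0.74, 0.94 and 0.74, and the amino acid transporter genes *Slc7a5* and *Slc7a1* fell by 0.60 and 1.03 on the log2 scale.

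All 83 cytosolic ribosomal protein genes tested rose, with a median log2 change of 0.93 (0.49 under library size scaling and 0.42 with length offsets), and their sum made up 15.6% ± 0.107 of UMIs with saline and 21.5% ± 0.604 with CSA (SD, n = 3). *Rps7* read 849, 841 and 832 CPM with saline and 1994, 2069 and 2117 CPM with CSA, *Rpl35a* rose from 1223 ± 24.4 to 2935 ± 92.1 CPM and *Rplp0* from 3513 ± 19.4 to 6620.2 ± 279.7 CPM. *Rps2* rose least among those named (0.47, and 0.021 with length offsets) and read below 0 within clusters C1, C2, C3, C4 and C10. Many of these genes have processed pseudogenes, between which the counting can split reads. Mitochondrial ribosomal proteins rose in 71 of 78 and none fell (median 0.68, 0.24 under library size scaling and 0.33 with length offsets), led by *Mrpl33*, from 170.3 ± 2.37 to 453 ± 3.599 CPM, with *Mrpl12* at 0.59. Within clusters the median ran from 0.10 in C2 to 0.76 in C5, with 5 of 72 called higher in C2 and 4 of 75 in C1. For cytosolic ribosomal proteins it ran from 0.19 in C1 to 1.17 in C0. Translation factors rose in 34 and fell in 7 of 52 (median 0.36, -0.081 under library size scaling and 0.31 with length offsets). *Eef1a1* rose from 5186 ± 49.1 to 8212 ± 312 CPM and *Eif3h* from 462 ± 15.9 to 839 ± 18.5 CPM, *Eif4a1* rose by 0.23, and *Eif4g2* fell from 547 ± 6.64 to 297 ± 12.01 CPM. Ribosome biogenesis genes did not share that direction, 8 higher and 8 lower of 26 (median -0.046, -0.48 under library size scaling and 0.070 with length offsets). *Myc* stood at 63.2 ± 4.73 CPM with saline and 72.3 ± 5.402 CPM with CSA (log2 change 0.18, adjusted p = 0.0329), a call lost without saline pool 1 (0.14), saline pool 3 (0.19) or CSA pool 1 (0.12), the nucleolar gene *Ncl* fell from 549 ± 10.9 to 397 ± 8.22 CPM, and *Npm1* stood at 906 ± 25.04 CPM with saline and 913 ± 22.7 CPM with CSA without passing.

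In the sums, proteasome genes rose in 34 of 37 with none lower, at a median log2 change of 0.52 (0.084 under library size scaling and 0.28 with length offsets). Within clusters the median was above 0 in 10 of 10 but ran from 0.045 in C4 to 0.58 in C5. Of 37 genes, 32 were called higher in C0, 2 in C1, 3 in C2, 4 in C3 and 0 in C4. *Psma1* and *Psmb2* rose from 136 ± 4.84 to 194 ± 9.38 CPM and from 169 ± 3.82 to 302 ± 5.62 CPM, and the immunoproteasome gene *Psmb8* from 715 ± 14.8 to 1177 ± 44.6 CPM. ER chaperones divided (7 higher, 9 lower of 21, median 0.072, -0.37 under library size scaling and 0.011 with length offsets). *Hspa5* (BiP) read 828, 890.04 and 753 CPM with saline and 493, 415 and 378 CPM with CSA and was lower in 10 of 10 clusters, *Canx* fell from 299.5 ± 16.3 to 159.8 ± 14.7 CPM, and the cyclophilin B gene *Ppib* and *Xbp1* rose from 426 ± 9.300 to 702 ± 6.32 CPM and from 66.1 ± 3.297 to 88.7 ± 8.64 CPM. Among cytosolic and mitochondrial chaperones 8 rose and 4 fell of 16 (median 0.12, -0.32 under library size scaling and -0.0080 with length offsets). *Dnajb1* rose from 54.9 ± 1.85 to 90.8 ± 3.17 CPM, *Hspd1* and *Hspa9* fell from 254 ± 17.5 to 199 ± 15.8 CPM and from 109 ± 7.21 to 69.6 ± 7.14 CPM, and *Hspa1a* had too few UMIs to be tested.

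Interferon-stimulated genes rose in 9 and fell in 14 of 30, with a median log2 change of -0.24 (-0.68 under library size scaling and -0.17 with length offsets). *Slfn5* and *Parp14* fell from 76.7 ± 4.15 to 28.4 ± 1.397 CPM and from 124 ± 2.99 to 50.1 ± 3.44 CPM, whereas *Ly6a* (Sca-1) and *Ifi47* rose from 1574 ± 4.44 to 2719 ± 250.01 CPM and from 197 ± 4.55 to 344 ± 33.6 CPM. *Isg15* rose by 0.36, with -0.080 under library size scaling and -0.15 with length offsets, so that its sign depended on the setting, and its call was lost without CSA pool 1 (0.14). MHC class I genes rose in 13 and fell in 2 of 17 (median 0.35, -0.088 under library size scaling and 0.081 with length offsets). *B2m* and *H2-K1* rose by 0.39 and 0.30, values that read -0.050 and -0.14 under library size scaling, and the peptide transporter gene *Tap1* and the transactivator gene *Nlrc5* fell from 281 ± 3.75 to 238 ± 20.2 CPM and from 63.8 ± 3.65 to 31.7 ± 3.03 CPM.

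Annexins, S100 proteins and galectins, which bind calcium, membranes or sugars, mostly rose. Of 19, 18 rose and 1 fell, at a median of 1.23 (0.79 under library size scaling and 1.003 with length offsets), and their sum made up 1.45% ± 0.0611 of UMIs with saline and 2.95% ± 0.0373 with CSA (SD, n = 3). *Lgals1* read 2655, 2451 and 2578 CPM with saline and 6677, 6743 and 6414 CPM with CSA and *Anxa2* rose from 467 ± 6.23 to 1141 ± 31.4 CPM. The fall was *Ahnak*, the longest transcript of the list, from 837 ± 79.4 to 594 ± 9.86 CPM, at 0.44 with length offsets. The pattern did not hold in cluster C9, in which *Anxa2*, *S100a6* and *Lgals1* fell with log2 changes of -3.25, -2.65 and -2.005, and *Gzmb* with -2.80. This cluster had 110 cells with saline and 94 with CSA. Actin genes rose in 18 and fell in 5 of 25 (median 0.66, 0.22 under library size scaling and 0.43 with length offsets). The thymosins *Tmsb4x* and *Tmsb10*, which bind actin monomers, rose from 7224 ± 174 to 23084 ± 179 CPM and from 4991 ± 52.6 to 15136 ± 52.7 CPM, *Actb* rose from 14440.3 ± 175 to 19659.5 ± 235 CPM, and *Actr2*, of the ARP2/3 complex, fell from 579.7 ± 15.4 to 259 ± 5.57 CPM. In the nuclear lamina list *Lmna* stood apart: 4 of 11 rose and 3 fell, with a median of -0.076 (-0.51 under library size scaling and 0.11 with length offsets). *Banf1* rose from 251 ± 8.400 to 417 ± 10.96 CPM, *Syne1* fell from 44.7 ± 2.51 to 19.4 ± 2.88 CPM, and *Lmnb1* stood at 302 ± 9.72 CPM with saline and 287 ± 14.5 CPM with CSA without passing, except without CSA pool 1 (-0.11).

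Survival and apoptosis genes rose in 8 and fell in 6 of 21 (median log2 change 0.076, -0.36 under library size scaling and 0.036 with length offsets). Pro-apoptotic members stood on both sides. *Bcl2l11* (BIM) fell from 59.8 ± 6.13 to 37.98 ± 2.22 CPM and *Pmaip1* (NOXA) from 24.5 ± 2.72 to 8.75 ± 0.291 CPM, *Bax* rose from 96.2 ± 8.25 to 177 ± 4.02 CPM and *Bad* from 20.7 ± 2.66 to 45.01 ± 1.49 CPM, and the death receptor gene *Fas* stood at 26.6 ± 4.35 CPM with saline and 22.6 ± 1.56 CPM with CSA (adjusted p = 0.0711, passing without saline pool 1 at -0.36).

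**Figure D4:**
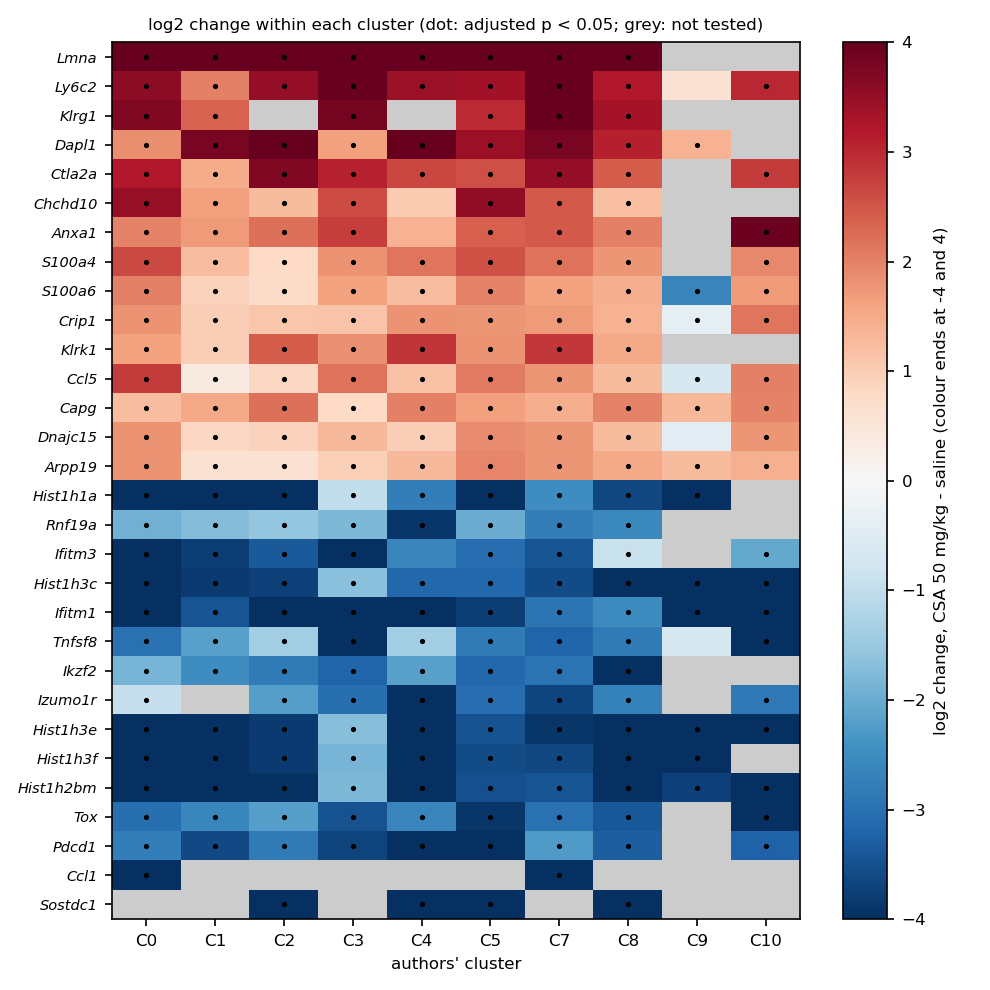
Log2 change (CSA 50 mg/kg minus saline) of the 15 largest rises and 15 largest falls, by the authors' clusters. Clusters shown had at least 10 cells in every pool. Colour gives the change, a dot marks an adjusted p under 0.05 within that cluster, and grey means not tested. *Lmna* is higher in all 8 clusters tested and *Pdcd1* lower in all 9, while *S100a6* is higher in 9 clusters and lower in cluster C9.

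Changes were also measured inside clusters, where the shares of the clusters do not enter. Each of the 10 clusters with at least 10 cells in every pool was compared by itself, although clusters were defined by the authors on these same cells and genes. *Lmna* was higher in 8 of 8 clusters tested, *Klrg1* in 6 of 6 and *Dapl1* in 9 of 9, and *Pdcd1* and *Tox* were lower in 9 of 9. The number of calls varied between clusters: 4300 of 7608 genes (56.5%) in C0, 3470 of 7043 (49.3%) in C5, 1406 of 7136 (19.7%) in C1 and 521 of 5281 (9.87%) in C4, where the smallest CSA pool had 11 cells. When the clusters were given equal shares in both groups, 5248 genes were called, 2574 higher and 2674 lower, of which 5081 were also called in the sums and 5073 had the same direction.

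Cell cycle genes depended on which cells were counted. In the sums, DNA replication genes rose in 18 and fell in 6 of 37 (median log2 change 0.13, -0.31 under library size scaling and 0.27 with length offsets), and mitosis genes rose in 13 and fell in 16 of 37 (median -0.13, -0.57 under library size scaling and 0.18 with length offsets). *Pcna* and *Mcm5* rose by 0.498 and 0.32, *Chaf1b* rose from 33.5 ± 0.7497 to 51.6 ± 4.700 CPM, and *Atad2* fell from 124 ± 10.2 to 73.2 ± 10.1 CPM. *Ccnb2*, *Birc5* (survivin) and *Cks2* rose from 103 ± 7.41 to 207 ± 10.97 CPM, from 177 ± 6.198 to 340.5 ± 19.3 CPM and from 120.5 ± 2.71 to 217 ± 16.4 CPM, and the proliferation marker *Mki67* read 572, 650.1 and 612 CPM with saline and 279, 248 and 286 CPM with CSA. Its groups did not overlap, but its transcript is long, and the change was -0.21 with length offsets. *Bub1* fell by 0.71 on the log2 scale, and *Ccnb1* stood at 67.02 ± 6.24 CPM with saline and 72.97 ± 4.39 CPM with CSA without passing, except without saline pool 2 (0.20). Of the G1 regulators, 6 rose and 7 fell of 17 (median -0.016, -0.45 under library size scaling and 0.045 with length offsets): *Ccnd2*, *Ccnd3* and the inhibitor *Cdkn1a* (p21) rose from 139 ± 8.96 to 251 ± 14.5 CPM, from 279.8 ± 6.29 to 498 ± 33.1 CPM and from 20.2 ± 1.31 to 33.5 ± 2.81 CPM, and *Cdk6* and the inhibitor *Cdkn1b* (p27) fell from 94.3 ± 1.01 to 38.4 ± 1.11 CPM and from 150.4 ± 4.86 to 83.7 ± 4.01 CPM.

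Replication-dependent histone genes fell in 43 of 48 and rose in 3, with a median log2 change of -2.04 (-2.48 under library size scaling and -2.59 with length offsets). Their sum made up 0.766% ± 0.0161 of UMIs with saline and 0.163% ± 0.00874 with CSA (SD, n = 3), and in none of 10 clusters was the median above 0. These transcripts are short, at a median of 579.5 nt, and so moved against the length relation. They mostly lack a poly(A) tail, so their capture by oligo(dT) is partial. *Hist1h4c* fell from 48.9 ± 1.87 to 5.43 ± 0.6696 CPM. The rises were *Hist1h2ap*, from 26.9 ± 1.01 to 88.3 ± 5.46 CPM, *Hist3h2ba*, from 12.3 ± 1.21 to 26.5 ± 0.121 CPM, and *Hist1h4i*, from 13.6 ± 2.74 to 23.2 ± 3.32 CPM. Histone genes of one cluster are near-identical, and reads may be split between them.

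Clusters C3, C5 and C6 held the dividing cells, with 573, 600 and 2746 plain CPM (without TMM scaling) of *Mki67* against 35.9 to 117 in the other clusters. They made up 19.6%, 21.5% and 23.9% of cells in the saline pools and 34.5%, 30.8% and 33.9% in the CSA pools. C6 had 443 cells with saline and 34 with CSA, whereas C3 had 180 and 541 and C5 had 262 and 438. The change in these cells was compared with the change in the remaining cells, in a fit that held each pool as a block. It differed for 825 of 10208 genes (8.08%), 640 of them more positive in cycling cells (6.27%) and 185 more negative (1.81%). With C3 and C5 alone as cycling cells 865 genes differed, 400 more positive and 465 more negative, so the share of positive differences went from 77.6% to 46.2%. Of the 825 genes, 342 then differed in the same direction, 90 in the opposite direction and the rest did not pass.

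In the cycling cells, mitosis genes were more positive in 32 of 37 and histones in 39 of 47. The clusters were drawn on these same cells and genes, so levels of cell cycle genes helped decide the class of a cell. For these genes the difference, and the change outside the dividing clusters, are therefore not independent of the sorting into classes. *Birc5* changed by 1.01 in cycling cells and by -1.43 in the others (difference 2.46 ± 0.108 SE, adjusted p = 5.31e-18). *Hist1h1a* changed by -2.03 and -3.92. Outside the dividing clusters the median log2 change was -1.496 for mitosis genes, -0.64 for DNA replication genes and -3.62 for histones. Ribosomal proteins were more positive in 57 of 83 and complex I in 21 of 36, by smaller amounts (median differences 0.19 and 0.31). These did not hold without C6: with C3 and C5 alone as cycling cells, 0 ribosomal protein genes were more positive and 77 of 83 more negative, and in complex I 0 were more positive and 3 more negative. Mitosis genes and histones were more positive in 34 of 37 and 38 of 47 on that basis. Inhibitory receptors went the other way, with 6 of 17 more negative and none more positive. *Pdcd1* changed by -3.86 on the log2 scale in cycling and by -3.08 in other cells. *Lag3* changed by -2.16 and -1.22, *Ccl1* by -9.03 and -4.49 and *Il21* by -5.95 and -3.66. The differences of *Ccl1* and *Il21* did not pass with C3 and C5 alone (adjusted p = 0.152 and 0.347), nor did 3 of the 6 inhibitory receptor genes.

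**Figure D5:**
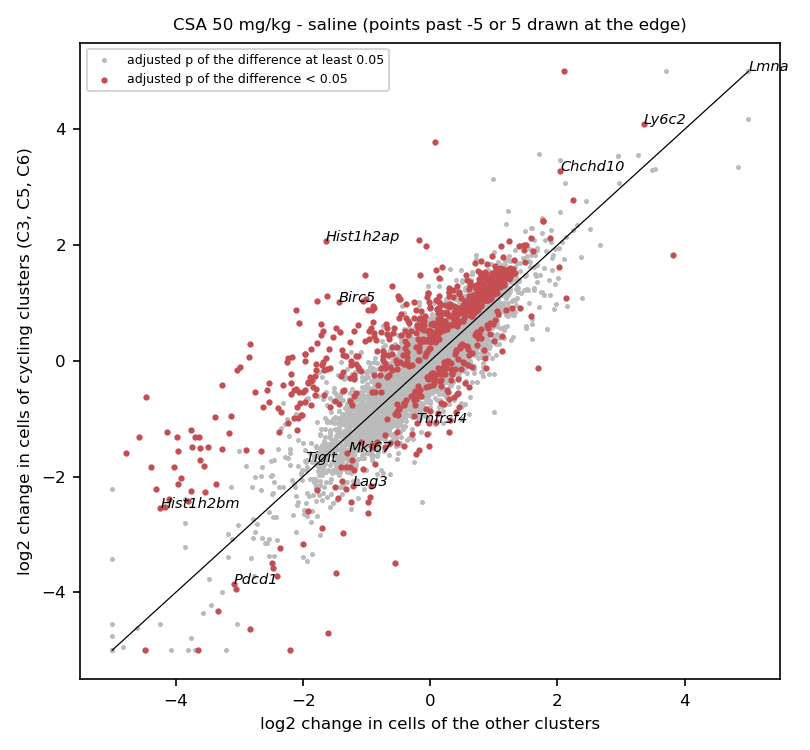
Log2 change (CSA 50 mg/kg minus saline) of each gene in cells of the cycling clusters C3, C5 and C6 against its change in cells of the other clusters; coloured points are genes whose change differed between the classes. *Birc5* lies at 1.01 in cycling and -1.43 in other cells, and *Pdcd1* lies below the diagonal.

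Markers of other cells were present at low level and moved between the groups. Plasma cell *Jchain* had 1, 2 and 5 UMIs in the saline pools and 132, 16 and 284 in the CSA pools, with *Mzb1* at 20 or fewer UMIs in every pool, and erythroid *Hba-a1* had 12, 3 and 15 UMIs in the saline pools and 53, 73 and 65 in the CSA pools. Sums over marker lists are plain CPM, without TMM scaling, so they cannot be set against the levels of single genes. The summed erythroid markers lay between 7.31 and 18.02 CPM with saline and between 29.5 and 39.7 with CSA. Of the B cell markers, *Ms4a1* had at most 1 UMI in a pool, whereas *Ighm* rose from 146 ± 7.26 to 291 ± 8.704 CPM and *Igkc* from 18.1 ± 2.08 to 30.6 ± 12.6 CPM, and the list summed to 197 to 212 CPM with saline and 279.9 to 297 with CSA. The myeloid list summed to 306 to 346 and 309.7 to 393, and 3 of 8 tested members rose, among them *Cst3* and *C1qb* (log2 changes 0.71 and 0.61). The call of *C1qb* was lost without saline pool 1 (0.49), saline pool 2 (0.55) or CSA pool 2 (0.25), and that of *Igkc* without any saline pool (0.68 to 0.84) or without CSA pool 3 (0.40). The NK list summed to 67.6 to 79.3 and 30.9 to 88.9, and platelet *Ppbp* had 0 UMIs in 5 pools. Their part in the results above was not tested.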

How the data were processed

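Spleen CD4+ T cells from 3 pools of 2 mice per group were profiled with 10x 5′ chemistry. The authors deposited UMI counts per gene and cell, aligned to mm10 with Cell Ranger and processed with Seurat 3.0.0 per the labels, with cells and genes already filtered and with cluster numbers (resolution 0.4), pool and TEa mark for each cell. The deposited mitochondrial value of a cell is a fraction of its UMIs (median 1.6% to 1.74% over the 6 pools). Cells were assigned by their deposited pool name. The strongest hashtag was that of another pool in 0, 19 and 43 cells of the saline pools. In the CSA pools it was so in 0 of 988, 67 of 1010 and 103 of 1066 cells. No doublet caller was run: cells whose second hashtag reached 0.5 of the first made up at most 10.6% of any pool, and an alternative dropped them. Captures shared 14 barcodes (saline and CSA). Annotation and demultiplexing were not given in the sources used here.

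Counts of cells not marked TEa were summed per pool, and all 9 pools were fitted in edgeR 4.0.16 (R 4.3.3; filterByExpr, TMM, quasi-likelihood, Benjamini-Hochberg, threshold 0.05). The pools are separate animals, but p-values carry no capture spread. The test was checked on simulated counts in which 200 genes changed by 1 on the log2 scale. It recovered 97.5% of them and called 6 unchanged genes. The simulated counts held no effect of capture or of transcript length, so this check does not cover either. DESeq2 1.42.0 was an alternative, as were no filter, library size scaling, the 2 groups alone and the number in the pool name as a block. Others were non-cycling cells, a minimum of 2000 UMIs, TEa cells included and each pool left out. Equal shares of 10 clusters (pseudocount 1) and single clusters (10 cells or more in every pool) were further ones. Added after seeing the data were length offsets and cells whose strongest hashtag is that of their pool. Transcript length was the median over a gene's basic GENCODE vM21 transcripts. Named genes were the 15 largest rises and falls of at least 50 CPM with no overlap (TCR, immunoglobulin and sex-linked genes left out), the key genes of 43 lists, and members of at least 10 CPM with up to 3 of the largest rises and falls of a list. That rule gave 311 genes, of which 234 are named; some are not reported here. Groups, lists and genes were chosen with earlier results of these data known. Sums over marker lists and levels by cluster are plain CPM; the ratio of rare genes and all other levels are on the TMM scale. Tables of CD8 cells were not used here.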

Additional observations from a re-analysis of the deposited data

Results flagged for a closer look

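For 84 of the genes named above the change with CSA differed between cells of the cycling clusters C3, C5 and C6 and the other cells of the same pools, by the edgeR test of the difference (adjusted p under 0.05, pool as a block). All values here are that difference on the log2 scale, the change in cycling cells minus the change in the others, and a positive value means that the change was more positive in cycling cells. The share of genes that differed over all genes tested was 8.08%. C6 had 443 cells with saline and 34 with CSA, C3 had 180 and 541, and C5 had 262 and 438, so the makeup of the class differed between the groups. Cell cycle and histone genes also helped decide the class of a cell, so their differences are not independent of it. With C3 and C5 alone as cycling cells, 40 of the 84 differed in the same direction and 10 in the opposite one, with differences of *Crip1* -0.39, *Cox7c* -0.31, *Atp5e* -0.24, *Atp5l* -0.29, *Mrpl33* -0.25, *Rplp0* -0.27, *Rps7* -0.35, *Rpl35a* -0.40, *Lgals1* -0.31 and *Tmsb10* -0.21, and the other 34 did not pass.

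Histone genes gave *Hist1h2bm* 1.70, *Hist1h3f* 1.73, *Hist1h3e* 1.67, *Hist1h3c* 1.53, *Hist1h1a* 1.91, *Hist1h2ap* 3.73, *Hist1h4i* 1.88 and *Hist1h4c* 1.40. Genes of the cell cycle and the nuclear lamina gave *Mcm5* 0.55, *Pcna* 0.52, *Ccnb1* 1.68, *Ccnb2* 2.10, *Birc5* 2.46, *Cks2* 1.57, *Bub1* 1.08, *Cdkn1a* 0.90, *Ccnd3* -0.26, *Lmnb1* 0.66 and *Banf1* 0.66. Mitochondrial, ribosomal, chaperone, proteasome and glycolytic genes gave *Chchd10* 1.26, *Dnajc15* 0.56, *Sdhb* 0.29, *Ndufa1* 0.38, *Ndufa3* 0.31, *Cox6c* 0.40, *Cox7c* 0.33, *Uqcrq* 0.45, *Atp5e* 0.43, *Atp5l* 0.37, *Mrpl33* 0.31, *Rplp0* 0.18, *Rps7* 0.22, *Rpl35a* 0.23, *Hspd1* -0.30, *Psmb2* 0.25, *Gapdh* 0.32, *Ldha* -0.22 and *Hk1* -0.42.

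Receptor, cytokine, chemokine and linked transcription factor genes gave *Pdcd1* -0.78, *Tox* -0.89, *Lag3* -0.94, *Lilr4b* -0.98, *Cd226* -0.500, *Tnfrsf4* -0.85, *Cd48* -0.27, *Ikzf2* -0.99, *Tnfsf8* -1.09, *Il21* -2.32, *Tnf* 0.68, *Ccl1* -4.55, *Ccl4* -0.99 and *Ccl5* 0.66. Effector, homing and cytokine receptor genes gave *Ly6c2* 0.75, *Gzma* 1.40, *Gzmb* 0.60, *Gzmk* 0.89, *Id2* 0.26, *Il18r1* -0.66, *Itgb1* -0.27, *Ccr2* -0.35, *S1pr4* -0.29, *Selplg* -0.25, *Il2rb* -0.32 and *Cish* -0.95. Calcium-binding and cytoskeletal genes, with *Arpp19*, gave *S100a4* 0.55, *S100a6* 0.67, *Crip1* 0.26, *Capg* -0.37, *Lgals1* 0.21, *Ahnak* -0.28, *Tmsb4x* 0.55, *Tmsb10* 0.45 and *Arpp19* 0.52. The remaining genes, of TCR signalling, interferon response, presentation and B cells, gave *Ifitm3* -0.87, *Ppia* 0.47, *Egr1* 0.84, *Lck* 0.19, *Cd6* -0.31, *Lat* 0.19, *Nfkbia* -0.30, *Ly6a* 0.17, *B2m* -0.21, *Cd3d* 0.20 and *Igkc* 2.21.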

How the results depend on the processing

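The alternatives on the sums moved the total number of calls between CSA and saline by less than 1.5 times. Single clusters aside, it lay between 5248 (equal cluster shares) and 7838 (library size scaling). It was 7433 with the number in the pool name as a block and 7032 to 7283 when any 1 pool was left out. The split moved more, from 3669 higher and 3785 lower to 1599 and 6239 under library size scaling and to 3684 and 2474 with length offsets. Single clusters, of fewer cells, gave 426 (C9) to 4300 (C0) calls. DESeq2 called 6497 (3268 higher, 3229 lower). The numbers in the pool names did not pair the pools. The correlation of the deviations of same-numbered saline and CSA pools was -0.006, -0.035 and 0.003. Fitting that number as a block changed no call of a named gene. For the difference between cycling and other cells, DESeq2 called 410 genes (360 more positive in cycling cells, 50 more negative), of which 409 were among the 825. Without the replicate block of pool in the model 683 were called, and 611 to 728 when any 1 pool was left out.

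Some values changed sign. Under library size scaling the log2 change turned to *Zap70* -0.42, *Dusp6* -0.058, *Dgka* -0.35, *Tbx21* -0.42, *Il2rb* -0.43, *Cish* -0.37, *Cs* -0.33, *Atp5a1* -0.062, *mt-Co1* -0.0070, *mt-Nd1* -0.20, *Eif4a1* -0.21, *Myc* -0.25, *Npm1* -0.43, *Acadl* -0.38, *Xbp1* -0.018, *Isg15* -0.080, *B2m* -0.050, *H2-K1* -0.14, *Mcm5* -0.12 and *Ccnb1* -0.32, and the list medians to TCR complex and proximal signalling -0.43, regulatory T cell genes -0.41, naive, central memory and quiescence genes -0.10, effector and effector memory genes -0.41, granzymes and cytotoxic granule genes -0.36, adhesion, homing and chemokine receptors -0.41, tricarboxylic acid cycle -0.11, mitochondrially encoded genes -0.20, translation factors -0.081, fatty acid oxidation -0.26, amino acid uptake, serine synthesis and one-carbon genes -0.39, ER chaperones and unfolded protein response -0.37, cytosolic and mitochondrial chaperones -0.32, MHC class I presentation -0.088, DNA replication and S phase -0.31, survival and apoptosis -0.36, myeloid cells markers -0.19, NK cells markers -0.26. With transcript length offsets, chosen after seeing the data, the log2 change turned to *Egr1* 0.32, *Maf* 0.44, *S1pr1* 0.0060, *Nfkb1* 0.010, *mt-Nd1* -0.22, *Ncl* 0.39, *Npm1* -0.37, *Hmgcs1* 0.25, *Isg15* -0.15, *B2m* -0.088 and *Ahnak* 0.44, and the list medians to regulatory T cell genes -0.36, granzymes and cytotoxic granule genes -0.066, mitochondrially encoded genes -0.19, ribosome biogenesis and Myc targets 0.070, sterol and fatty acid synthesis 0.35, cytosolic and mitochondrial chaperones -0.0080, mitosis and G2/M 0.18, G1 cyclins, inhibitors and checkpoint genes 0.045, nuclear lamina 0.11, myeloid cells markers -0.014, NK cells markers -0.36. With equal shares of 10 clusters (C6, C11 and C12 left out) the log2 change turned to *Foxp3* -0.85, *Hmgcs1* 0.36, *Mcm5* -0.043, *Ccnb1* -0.39 and *Hist1h4i* -0.11, and the list medians to regulatory T cell genes -0.51, effector and effector memory genes -0.091, ribosome biogenesis and Myc targets 0.029, sterol and fatty acid synthesis 0.37, ER chaperones and unfolded protein response -0.012, DNA replication and S phase -0.22, G1 cyclins, inhibitors and checkpoint genes 0.089, NK cells markers -0.028. In cells outside the cycling clusters the log2 change turned to *Mcm5* -0.37, *Pcna* -0.020, *Ccnb1* -1.68, *Ccnb2* -1.05, *Birc5* -1.43, *Cks2* -0.49, *Hist1h2ap* -1.65, *Hist1h4i* -0.60 and *Igkc* -0.18, and the list medians to TCR complex and proximal signalling -0.048, ribosome biogenesis and Myc targets 0.035, sterol and fatty acid synthesis 0.12, ER chaperones and unfolded protein response -0.063, DNA replication and S phase -0.64, B cells markers -0.18. Leaving out 1 pool turned *Ccl4* to -0.48 without CSA pool 3, in a range up to 0.58, the amino acid and one-carbon list median to -0.027, in a range up to 0.080, and the mitosis and G2/M list median to 0.030. The regulatory T cell list median also turned negative without CSA pool 3, as given above. Apart from the arithmetic of the scaling, the cause was not tested.

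Within single clusters, whose sums are shallower, the following values had the opposite sign to the sums over all cells. Within C0, *Ppp3ca* -0.040, *Egr1* 0.92, *Irf4* 0.30, *Ifng* 0.34, *Ctla4* 0.27, *Tnfrsf4* 0.26, *Maf* 0.48, *Gata3* -0.15, *Il2rb* -0.19, *Cish* -0.68, *Mcm5* -0.45, *Pcna* -0.21, *Ccnb1* -2.09, *Ccnb2* -1.60, *Birc5* -2.02, *Cks2* -0.84, *Hist1h2ap* -2.19 and *Igkc* -0.021. Within C1, *Zap70* -0.35, *Ccl4* -3.09, *Ctla4* 0.19, *S1pr1* 0.0037, *Gzmb* -0.37, *Nfkb1* 0.25, *Rps2* -0.12, *Myc* -0.20, *Npm1* -0.37, *Isg15* -0.83, *Mcm5* -1.38, *Pcna* -0.45, *Ccnb1* -2.08, *Ccnb2* -1.64, *Birc5* -2.06, *Cks2* -0.74, *Cdkn1a* -1.46, *Hist3h2ba* -0.44, *Hist1h4i* -1.19, *Banf1* -0.38, *Igkc* -1.15 and *Cst3* -0.067. Within C2, *Ppia* -0.14, *Lag3* 0.19, *Ctla4* 0.21, *Itgb1* 0.034, *Gzmb* -1.57, *Mrpl12* -0.23, *Rps2* -0.14, *Eif4a1* -0.28, *Myc* -0.20, *Npm1* -0.28, *Phgdh* -0.19, *Xbp1* -0.17, *Psma1* -0.012, *Isg15* -1.70, *Ly6a* -0.17, *Tap1* 0.11, *Mcm5* -1.53, *Pcna* -0.73, *Ccnb2* -1.74, *Birc5* -3.30, *Cks2* -0.93, *Bcl2l11* 0.41, *Bad* -0.11, *Banf1* -0.30, *Ahnak* 1.18, *Actb* -0.022 and *Cst3* -0.098. Within C3, *Egr1* 1.60, *Irf4* 0.36, *Zap70* -0.30, *Ifng* 0.082, *Tnf* 0.0054, *Cish* -1.19, *Rps2* -0.095, *Npm1* -0.29, *Slc7a5* 0.012, *Xbp1* -0.094, *Isg15* -0.12 and *B2m* -0.13. Within C4, *Tnf* 0.025, *Il7r* 0.060, *Bcl2* 0.28, *Gzmb* -1.05, *Cxcr3* -0.45, *Nfkb1* 0.022, *Mdh2* -0.55, *Atp5a1* -0.43, *Rps2* -0.31, *Eif4a1* -0.21, *Eif3h* -0.078, *Npm1* -0.80, *Hmgcs1* 1.97, *Slc7a5* 0.68, *Phgdh* -0.60, *Xbp1* -0.019, *Psmb2* -0.29, *Isg15* -0.96, *B2m* -0.10, *Mcm5* -0.82, *Pcna* -0.46, *Ccnb2* -0.29, *Birc5* -1.09, *Cks2* -2.31, *Banf1* -0.0021 and *Ahnak* 1.44. Within C5, *Tnf* 0.042, *Ccl4* -1.86, *Il2rb* -0.38, *Hspd1* 0.039, *Fas* 1.08 and *C1qb* -0.22. Within C7, *Ctla4* 1.10, *Gata3* -0.060, *S1pr1* 0.76, *Il7r* 0.16, *Myc* -0.11, *Xbp1* -0.0054, *Isg15* -0.75 and *Ccnb2* -0.22. Within C8, *mt-Nd1* -0.0070, *Isg15* -0.16, *Ccnb2* -0.31, *Birc5* -0.28, *Cks2* -0.88 and *Cdkn1a* -0.34. Within C9, *S100a6* -2.65, *Crip1* -0.39, *Ccl5* -0.64, *Dnajc15* -0.47, *Cd6* -0.10, *Dusp2* -0.018, *Id2* -0.66, *Gzmb* -2.80, *Gapdh* -0.28, *Cox7c* -0.079, *Ppib* -0.16, *Hspd1* 0.075, *Hspa9* 0.19, *Psma1* -0.0016, *Psmb2* -0.24, *Ly6a* -0.32, *B2m* -0.054, *Anxa2* -3.25, *Lgals1* -2.005, *Actb* -0.0071 and *Cst3* -0.28. Within C10, *Cxcr3* -0.16, *Atp5a1* -0.097, *mt-Nd1* -0.66, *Rps2* -0.021, *Eif4a1* -0.96, *H2-K1* -0.061 and *Ahnak* 0.47. The number of UMIs limits these most in C4, where the smallest CSA pool held 26099.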

Other observations

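Among genes of at least 50 CPM, the 15 most positive and 15 most negative differences between cycling and other cells held further genes. Those of the cell cycle helped decide the class of a cell, so their differences are not independent of it. For genes of DNA replication and mitosis the log2 change was above or near 0 in cycling cells and below 0 in the others: *Pclaf*, a PCNA-binding factor, read 0.63 in cycling and -1.72 in other cells, the ribonucleotide reductase gene *Rrm2* 0.31 in cycling and -1.79 in other cells, and the kinase gene *Cdk1* 0.52 in cycling and -1.69 in other cells. *Cdkn3*, a phosphatase that acts on CDK1, read 1.49 in cycling and -1.02 in other cells. The cyclin gene *Ccna2* read 0.12 in cycling and -1.97 in other cells, and *Fbxo5*, an inhibitor of the anaphase-promoting complex, -0.029 in cycling and -2.25 in other cells. On the negative side, *Il2ra*, the high-affinity chain of the IL-2 receptor, read -1.42 in cycling and -0.64 in other cells. With C3 and C5 alone as cycling cells the differences of *Il2ra* and *E2f2* did not pass (adjusted p = 0.671 and 0.0886), and those of the other 9 genes named here did. *Itm2a*, a membrane protein of activated T cells, read 0.78 in cycling and 1.59 in other cells, and the cell cycle factor gene *E2f2* -0.31 in cycling and 0.44 in other cells. *Anapc2*, a subunit of the anaphase-promoting complex, read -0.34 in cycling and 0.33 in other cells, and *Ifitm2*, a neighbour of *Ifitm1* and *Ifitm3*, -2.22 in cycling and -1.33 in other cells.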
